A study of Oryza sativa with 12 samples.

Results

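A set of 88 rice genes that were nearly silent at 29 ºC and expressed after heat stress at 45 ºC was examined. The members were chosen from 55986 genes by their expression values in the 12 RNA-Seq libraries of the study. A gene was taken when its FPKM (fragments mapped to a gene, corrected for transcript length and for the size of the library) was at most 0.5 in each of the 6 libraries at 29 ºC and at least 5 in each of the 6 libraries at 45 ºC. In total, 89 genes passed these thresholds, and LOC_Os03g50250, annotated as a DnaK family protein, was left out of the set. The difference between 45 ºC and 29 ºC was therefore used to choose the members, and it is given as a description without a test.

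The libraries were made from whole seedlings of the Nipponbare cultivar at an age of 8 days, kept for 3 h at 45 ºC or at 29 ºC. The 4 groups were *ntl3-1* at 45 ºC, wild type (WT) at 45 ºC, *ntl3-1* at 29 ºC and WT at 29 ºC, with 3 libraries each. *ntl3-1* is a single CRISPR-Cas9 line of the same cultivar in which OsNTL3, a membrane-associated NAC transcription factor, is predicted to be truncated. The labels name the edited gene and the treatment, while the temperatures, the duration and the allele were taken from the description of the study. Nothing in the labels says that the libraries of a group came from separate cultures, so the p-values measure the spread between these libraries only.

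Heat shock factors (HSFs) are transcription factors that become active when proteins unfold at high temperature and bind heat shock elements in the promoters of chaperone genes. In plants the family is large, and several of its genes are themselves induced by heat, so that the factors amplify the response. Genes that are silent at the growth temperature also include transposable elements, which plants keep silent through chromatin modification and some of which are known to be transcribed under heat stress.

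Several facts of the libraries touch all results. Transcripts of OsNTL3 (LOC_Os01g15640) had 28.7, 28.4 and 34.1 FPKM in *ntl3-1* and 57.5, 66.3 and 87.5 FPKM in WT at 45 ºC (log2FC −1.19, adjusted p = 0.00439 in limma), a difference that goes with the labels although the edit itself was not read. Between 27884 and 28851 genes had a value above 0 at 45 ºC, and between 29161 and 29610 at 29 ºC. The absolute depth is unknown, but the lowest values of the libraries give the worth of 1 read relative to WT replicate 1 at 29 ºC, which was 1.68 to 2.04 at 45 ºC and 0.877 to 1.08 at 29 ºC. The same FPKM thus rested on fewer reads at 45 ºC. The FPKM of all genes summed to 1153020 to 1369240 in a library at 45 ºC and to 610880 to 698971 at 29 ºC. The thresholds and the differences between temperatures were taken on this scale as deposited. The seedling markers fitted the labelled tissue: the 3 Rubisco small subunit loci and the chlorophyll a/b binding protein LOC_Os01g41710 had at least 414.8 FPKM in every library, and of the 2 glutelin loci of the seed LOC_Os02g15169 was at 0 in all libraries and LOC_Os01g55690 reached at most 0.784 FPKM. The root marker LOC_Os02g44310 (RCc3) had 4.01 to 10.6 FPKM at 45 ºC and 75.6 to 303 FPKM at 29 ºC. Its means at 29 ºC were 121 FPKM in *ntl3-1* and 252 FPKM in WT, with overlap. Each Rubisco and chlorophyll a/b locus was higher in every *ntl3-1* library than in every WT library at 29 ºC. LOC_Os12g17600, with means of 10329 and 5528 FPKM there, and LOC_Os01g41710 were so at 45 ºC too. None of these differences was called (limma), and their part in the genotype comparisons was not tested. In whole seedlings, fewer cells of a type and less RNA per cell cannot be told apart.

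The 88 members covered a wide range of expression at 45 ºC. Their mean over the 6 libraries at 45 ºC ran from 7.52 to 1081 FPKM with a median of 24.0 FPKM. A mean of at least 100 FPKM was found in 14 members and of at least 500 FPKM in 3 members, while 38 members had less than 20 FPKM. At 29 ºC, 15 members were listed at 0 in all 6 libraries, 34 were above 0 in all 6 libraries, and 39 were at 0 in some of them. In all, 210 of the 528 values at 29 ºC were 0, and 43 members never reached 0.2 FPKM. The other 45 members reached 0.2 FPKM in at least 1 library. The summed FPKM of the members was 6487, 6379 and 6672 in *ntl3-1* and 6887, 5033 and 8542 in WT at 45 ºC, against 12.2, 8.87 and 10.8 in *ntl3-1* and 6.68, 6.09 and 7.13 in WT at 29 ºC. The members together took 0.437% to 0.624% of all FPKM of a library at 45 ºC and 0.000997% to 0.00191% at 29 ºC. On the log2(FPKM + 0.1) scale, the difference between 45 ºC and 29 ºC was 4.69 to 12.22 with a median of 6.90 in *ntl3-1*, and 4.68 to 12.06 with a median of 7.33 in WT. These differences follow from the thresholds, and for members listed at 0 they depend on the constant of 0.1 FPKM.

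**Figure D1:**
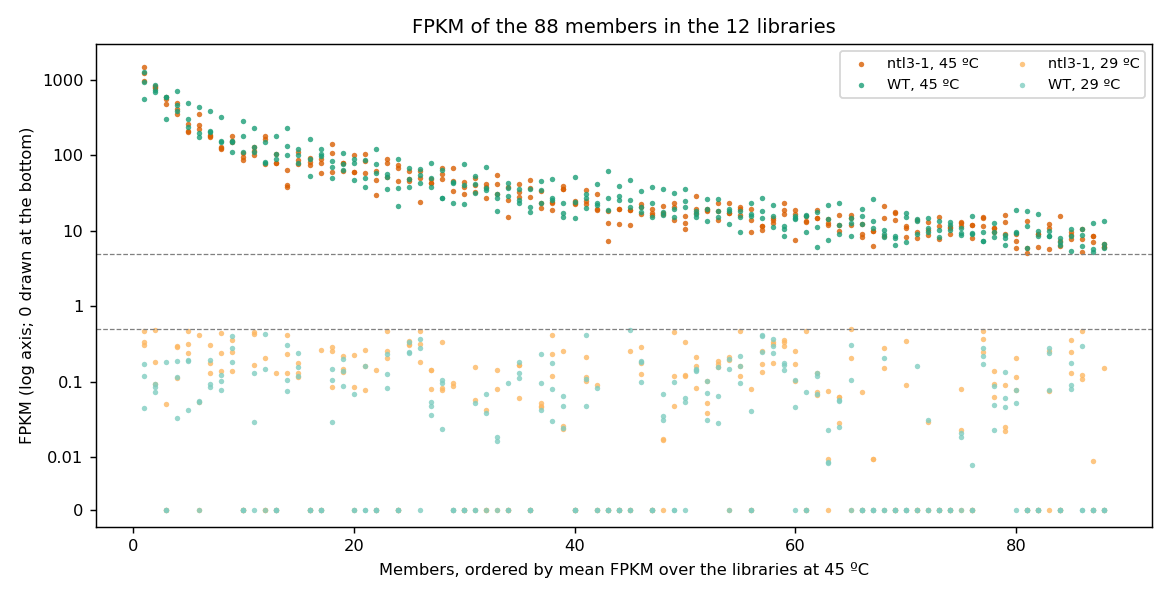
FPKM (log axis, with 0 drawn at the bottom) of each of the 88 members in the 12 libraries, with 1 point per library and members ordered by their mean at 45 ºC. Orange and green points are *ntl3-1* and WT at 45 ºC, light orange and light green points are *ntl3-1* and WT at 29 ºC, and the dashed lines mark 5 and 0.5 FPKM, the thresholds by which the members were chosen. The members run from 1081 to 7.52 FPKM in their mean at 45 ºC.

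The most abundant member was LOC_Os06g36930, whose product carries an HSF-type DNA-binding domain. It had 976, 1227 and 1495 FPKM in *ntl3-1* and 1279, 566 and 940 FPKM in WT at 45 ºC, against 0.476, 0.308 and 0.338 FPKM in *ntl3-1* and 0.0450, 0.118 and 0.175 FPKM in WT at 29 ºC. It ranked 137 among all genes of the table by its mean at 45 ºC. The genotypes overlapped at 45 ºC (log2FC 0.47, SE 0.31, adjusted p = 0.572 in limma), and at 29 ºC all *ntl3-1* libraries were above all WT libraries (log2FC 1.19, adjusted p = 0.0816 in limma). It was the only member found among the HSF loci.

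The next members in order of abundance had no product described in the sources used here. LOC_Os07g47840 had 836, 802 and 773 FPKM in *ntl3-1* and 735, 690 and 861 FPKM in WT at 45 ºC, and at most 0.491 FPKM at 29 ºC. Its highest and lowest values at 45 ºC differed by 1.25-fold, the smallest spread of the 88 members. LOC_Os02g34270 had 596, 486 and 568 FPKM in *ntl3-1* and 594, 306 and 601 FPKM in WT at 45 ºC. At 29 ºC it was at 0 in 4 of the 6 libraries, with 0.0511 FPKM in *ntl3-1* replicate 2 and 0.182 FPKM in WT replicate 2. Most libraries at 29 ºC thus did not detect the gene that ranked 271 at 45 ºC. LOC_Os07g25960 had 491, 416 and 356 FPKM in *ntl3-1* and 471, 385 and 712 FPKM in WT at 45 ºC. LOC_Os01g47290 had 264, 209 and 206 FPKM in *ntl3-1* and 300, 237 and 492 FPKM in WT at 45 ºC. In both genes the highest value was that of WT replicate 3.

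LOC_Os11g13980 went another way. It had 226, 357 and 251 FPKM in *ntl3-1* and 437, 198 and 175 FPKM in WT at 45 ºC, so that WT replicate 1 was the highest and WT replicate 3 the lowest of the 6 libraries. LOC_Os01g39136 had 180, 187 and 178 FPKM in *ntl3-1* and 206, 214 and 386 FPKM in WT at 45 ºC. LOC_Os07g43604 had 129, 120 and 124 FPKM in *ntl3-1* and 152, 154 and 320 FPKM in WT at 45 ºC. In LOC_Os01g39136 and LOC_Os07g43604 the *ntl3-1* libraries lay closely together below all WT libraries, and neither passed the test (log2FC −0.50, adjusted p = 0.474, and log2FC −0.65, adjusted p = 0.405, limma). LOC_Os09g32095, an expressed protein of unknown function, had 151, 154 and 179 FPKM in *ntl3-1* and 156, 110 and 152 FPKM in WT at 45 ºC. LOC_Os01g34020 completed the 10 most abundant members, with 88.1, 108 and 95.4 FPKM in *ntl3-1* and 181, 111 and 290 FPKM in WT at 45 ºC. It was listed at 0 in all 6 libraries at 29 ºC and was the most abundant of the 15 members of that kind.

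The other 14 members at 0 throughout 29 ºC had lower levels at 45 ºC. LOC_Os12g33750 had 73.7, 81.0 and 91.3 FPKM in *ntl3-1* and 53.9, 89.9 and 166 FPKM in WT, and LOC_Os02g26260 had 46.0, 74.6 and 68.3 FPKM in *ntl3-1* and 21.6, 37.5 and 89.2 FPKM in WT. Neither has a described product here, and in both the genotypes overlapped. Since 0 at 29 ºC only says that no read was counted, no fold change is given for these genes.

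Annotation was thin in this set. A product list for the heat-induced genes of the study held 36 of the 88 members, and the copy used here was shortened, so the other 52 may be described elsewhere. Of the 36, 13 had a described product, 17 had none, 4 were proteins of unknown function and 2 were listed only under another locus name. The 13 comprised 1 HSF, 2 other regulators of gene expression, 5 retrotransposon proteins, 1 cytochrome P450 and 4 others.

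Among the regulators, LOC_Os01g53650 encodes a zinc finger protein of the CCCH type, a class that includes many RNA-binding proteins. It had 14.1, 18.0 and 17.0 FPKM in *ntl3-1* and 8.16, 6.46 and 8.61 FPKM in WT at 45 ºC, and 0 in all 6 libraries at 29 ºC. All *ntl3-1* libraries were above all WT libraries. LOC_Os02g12350 encodes a putative histone deacetylase, an enzyme class that removes acetyl groups from histones and other proteins. It had 10.2, 11.6 and 11.6 FPKM in *ntl3-1* and 18.5, 14.7 and 27.4 FPKM in WT at 45 ºC, and 0.136 to 0.254 FPKM in *ntl3-1* and 0.245 to 0.424 FPKM in WT at 29 ºC. All *ntl3-1* libraries were below all WT libraries at 45 ºC, and the difference did not pass the test (log2FC −0.80, SE 0.26, adjusted p = 0.188, limma).

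The 5 retrotransposon proteins had means between 13.9 and 50.2 FPKM at 45 ºC. LOC_Os09g25690 had 62.7, 49.6 and 24.4 FPKM in *ntl3-1* and 54.8, 43.3 and 66.5 FPKM in WT at 45 ºC. LOC_Os01g31450 had 56.2, 48.2 and 67.5 FPKM in *ntl3-1* and 27.6, 27.7 and 64.0 FPKM in WT at 45 ºC. LOC_Os03g36279, of the Ty3-gypsy subclass, had 20.4, 14.0 and 23.7 FPKM in *ntl3-1* and 19.4, 15.3 and 32.1 FPKM in WT at 45 ºC. The genotypes overlapped in these 3 genes and in LOC_Os08g40290. LOC_Os11g04040 stood apart from them, with 18.8, 16.7 and 23.2 FPKM in *ntl3-1* and 10.6, 8.69 and 11.8 FPKM in WT at 45 ºC, and 0.354, 0.338 and 0.296 FPKM in *ntl3-1* and 0.165, 0.145 and 0.177 FPKM in WT at 29 ºC. Retrotransposon copies can be near-identical, and a program such as RSEM, which the study names, divides reads shared between copies by estimation, so these values are uncertain.

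The remaining described products are of diverse kinds. LOC_Os08g01480 encodes a cytochrome P450, a class of enzymes that oxidize small molecules, and had 7.32, 5.98 and 8.99 FPKM in *ntl3-1* and 9.79, 9.41 and 18.8 FPKM in WT at 45 ºC. LOC_Os12g44210 encodes an ATPase of the AAA family, whose members use ATP to remodel proteins, and had 35.7, 35.9 and 39.2 FPKM in *ntl3-1* and 15.2, 17.2 and 23.2 FPKM in WT at 45 ºC. LOC_Os04g57350 encodes an EH domain-containing protein, a class known for roles in endocytic trafficking in animals, and had 19.5, 19.1 and 18.2 FPKM in *ntl3-1* and 19.6, 13.3 and 26.5 FPKM in WT at 45 ºC. The ATPase was separated between the genotypes, the P450 was lower in every *ntl3-1* library, and the EH domain protein overlapped between them. LOC_Os08g31280, annotated as DC1, had a mean of 18.1 FPKM at 45 ºC, and LOC_Os05g51680, an SCP-like extracellular protein, one of 13.8 FPKM. The other proteins of unknown function named by the rule were LOC_Os01g68960 with a mean of 96.2 FPKM and LOC_Os11g38250 with 15.2 FPKM at 45 ºC.

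Some members lay close to the thresholds. The highest values at 29 ºC inside the set were 0.497 FPKM in ChrSy.fgenesh.gene.85, the only member outside the numbered loci, and 0.491 FPKM in LOC_Os07g47840, and just outside were LOC_Os11g26780 with 0.503 FPKM and LOC_Os02g19410 with 0.508 FPKM. The lowest values at 45 ºC inside the set were 5.13 FPKM in LOC_Os01g01980 and 5.21 FPKM in LOC_Os12g44200, and just outside were LOC_Os07g25900 with 4.68 FPKM and LOC_Os10g39600 with 4.62 FPKM. In all, 21 genes missed the set through a single library at 29 ºC and 8 through a single library at 45 ºC.

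Whether the loss of OsNTL3 changed the level that these genes reached under heat stress was examined by comparing *ntl3-1* with WT at 45 ºC. This contrast was not used to choose the members beyond the floor of 5 FPKM. Most members were not called different between the genotypes, which does not show that their levels were alike. A single member, the CCCH zinc finger gene LOC_Os01g53650, was up-regulated in *ntl3-1* (log2FC 1.07, SE 0.18, adjusted p = 0.0155, limma over 31681 genes, with 0.05 as the highest adjusted p and 1 as the smallest log2FC in size for a call). With 1 of 88 members called higher and 0 called lower, the background was 0.877% of all genes tested for higher and 0.256% for lower. Without the adjustment, 6 members (6.82%, against 7.60% of all genes tested) were higher and 9 (10.2% against 6.43%) lower at p of at most 0.05. The log2FC of the members ran from −1.66 to 1.07 with a median of −0.13, against a median of −0.01 over all genes tested, and 57 members were within 0.5 of 0. The SE of a member had a median of 0.33, so differences well below 2-fold were not resolved for most members. The call of LOC_Os01g53650 was lost at constants of 1 and 0.01 FPKM, under quantile normalization, with the libraries at 45 ºC alone and without *ntl3-1* replicate 2, *ntl3-1* replicate 3 or WT replicate 2 at 45 ºC, and its log2FC stayed between 0.95 and 1.18 in all 21 alternatives, with adjusted p from 0.00178 to 0.113 (limma).

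**Figure D2:**
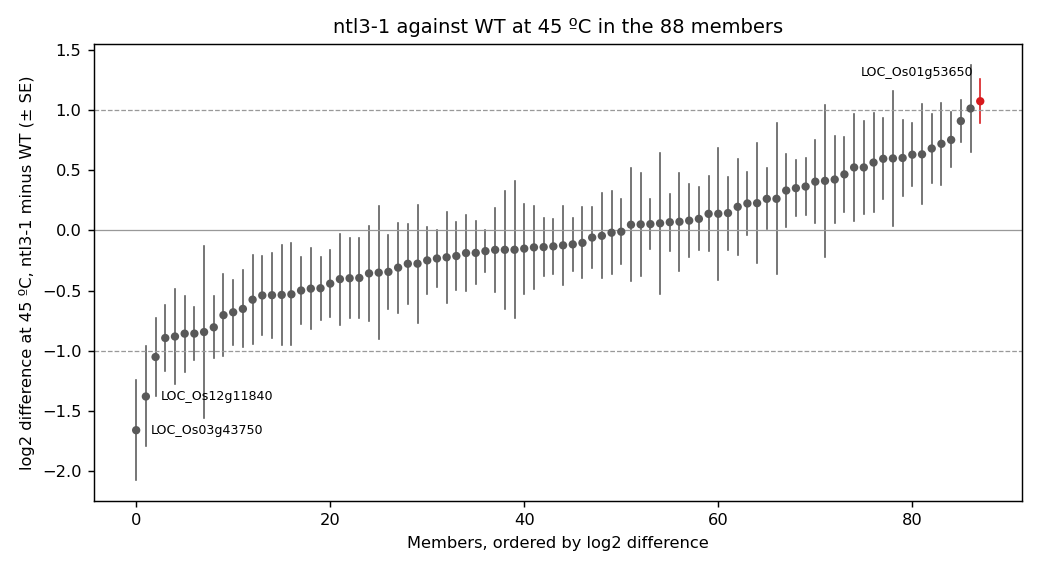
Difference between *ntl3-1* and WT at 45 ºC for each of the 88 members on the log2(FPKM + 0.1) scale, ordered by size, with bars of ± 1 SE from the limma fit over 3 libraries per group. LOC_Os01g53650 (red, log2FC 1.07) is the only member past both thresholds, the dashed lines mark a log2FC of 1 in size, and 57 points lie within 0.5 of 0.

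Further members differed by about as much without being called. LOC_Os11g04040, the retrotransposon protein described above, had a log2FC of 0.91 (SE 0.17, adjusted p = 0.0277, limma). It met the limit for the adjusted p and missed only the fold threshold, and it was called in 2 of 21 alternatives. The AAA ATPase LOC_Os12g44210 had a log2FC of 1.01 (SE 0.36, adjusted p = 0.246, limma). The members with the lowest values in *ntl3-1* relative to WT had no described product. LOC_Os03g43750 had 64.3, 41.1 and 37.7 FPKM in *ntl3-1* and 135, 102 and 229 FPKM in WT at 45 ºC (log2FC −1.66, SE 0.41, adjusted p = 0.0884, limma). LOC_Os12g11840 had 18.5, 7.44 and 12.9 FPKM in *ntl3-1* and 18.7, 27.6 and 61.4 FPKM in WT at 45 ºC (log2FC −1.38, adjusted p = 0.161, limma). LOC_Os06g28790 had 15.7, 12.6 and 10.6 FPKM in *ntl3-1* and 25.1, 21.0 and 35.7 FPKM in WT at 45 ºC (log2FC −1.05, adjusted p = 0.168, limma). These 3 were the members with a log2FC of −1 or lower, and in each the genotypes did not overlap.

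Counted over the libraries, 6 members were higher in all *ntl3-1* libraries than in all WT libraries at 45 ºC, which was 6.82% of the members against 6.74% of the 11996 genes with at least 5 FPKM in every library at 45 ºC. Another 14 members were lower in all *ntl3-1* libraries, which was 15.9% of the members against 9.01% of those genes. Whether these shares differ was not tested. The members so separated included the histone deacetylase LOC_Os02g12350 and the P450 LOC_Os08g01480 among the 14, and the CCCH zinc finger gene, the ATPase and LOC_Os11g04040 among the 6.

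WT replicate 3 at 45 ºC stood apart from the other WT libraries in this set of genes and in the tissue markers. It was the highest of the WT libraries at 45 ºC for 76 of 88 members (86.4%), against 48.0% of the 11996 genes. Of all 6 libraries it was the highest for 54 of 88 members, against 4157 of the 11996 genes. Its value was 1.54 times the mean of the other 2 WT libraries in the median member, against 1.05 times in the median of the 11996 genes. A ratio of at least 1.5 was reached by 45 members (51.1%), against 8.06% of the 11996 genes. The ratio ran from 0.552 in LOC_Os11g13980 to 3.02 in LOC_Os02g26260, and its median was 1.53 in the 75 members without and 1.61 in the 13 with a described product. The markers of leaf and root were lower in this library, at 0.675, 0.744 and 0.675 times the mean of the other 2 WT libraries for the Rubisco loci LOC_Os12g17600, LOC_Os12g19381 and LOC_Os12g19470, 0.723 times for LOC_Os01g41710 and 0.439 times for the root marker LOC_Os02g44310. Of the seed loci, LOC_Os01g55690 was at 2.16 times with 0.784 FPKM, and LOC_Os02g15169 was at 0. The part of these markers in the values of the members was not tested. In *ntl3-1* the corresponding median ratios over the members were 1.08, 0.958 and 0.970 for replicates 1, 2 and 3. Those of WT replicates 1 and 2 were 0.862 and 0.690, against 0.971 and 0.960 in the 11996 genes, and both are set in part by WT replicate 3 in the mean they are divided by. Compared directly, WT replicate 2 had 0.840 times the value of WT replicate 1 in the median member and was below it in 57 of 88 members, against 0.989 times and 52.8% of the 11996 genes. The highest and lowest of the 6 libraries at 45 ºC differed by 2.41-fold in the median member (1.25 to 8.25) and by 1.44-fold in the median of the 11996 genes.

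**Figure D3:**
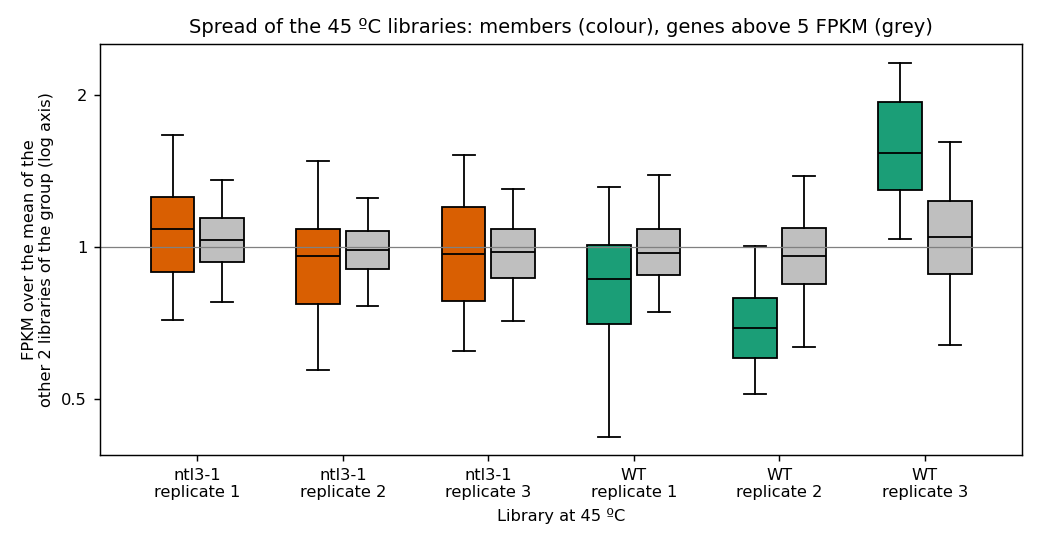
Ratio of each library at 45 ºC to the mean of the other 2 libraries of its group (log axis), for the 88 members (orange for *ntl3-1*, green for WT) and for the 11996 genes with at least 5 FPKM in every library at 45 ºC (grey). Boxes span the quartiles with the median as a line, and whiskers run to the 5th and 95th percentiles of genes. The median member is at 1.54 in WT replicate 3 and at 0.690 in WT replicate 2.

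The direction of the comparison between genotypes depended on that library. With all 6 libraries, the mean of *ntl3-1* was above that of WT in 37 of 88 members, and the median ratio of the means was 0.907. Against WT replicates 1 and 2 only, *ntl3-1* was above WT in 56 members, and the median ratio was 1.11. For the 11996 genes the same medians were 0.966 with all libraries and 0.986 without WT replicate 3. Without it, 18 members (20.5%) were higher and 14 (15.9%) lower in all *ntl3-1* libraries, against 14.1% and 16.1% of the 11996 genes. In the limma fit without this library, 2 members were called higher, of which LOC_Os01g53650 was 1. What set WT replicate 3 apart was not tested.

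At 29 ºC the rule holds every member at or below 0.5 FPKM, so only small differences were possible. No member was called between the genotypes in either direction (limma), where 1.79% of all genes tested were called higher and 0.202% lower in *ntl3-1*. Over all genes tested, 566 were called higher and 64 lower, and with 1 library left out in turn these counts ran from 346 to 604 and from 30 to 73. The counts called higher fell by more than 1.5 times without WT replicate 1 (368), WT replicate 2 (375) or *ntl3-1* replicate 3 (346) at 29 ºC, and those called lower without WT replicate 1 (30) or WT replicate 3 (34) at 29 ºC. Without the adjustment, 11 members (12.5%, against 8.52% of all genes tested) were higher and 1 (1.14% against 5.06%) was lower at p of at most 0.05. The summed FPKM of the members was 8.87 to 12.2 in *ntl3-1* and 6.09 to 7.13 in WT, without overlap, and the median member had a mean of 0.101 FPKM in *ntl3-1* and 0.0485 FPKM in WT. LOC_Os10g19919 had the lowest adjusted p, with 0.455, 0.165 and 0.429 FPKM in *ntl3-1* and 0, 0.0295 and 0.131 FPKM in WT at 29 ºC (log2FC 1.57, adjusted p = 0.0594, limma). At 45 ºC this gene had 128, 113 and 102 FPKM in *ntl3-1* and 129, 113 and 234 FPKM in WT.

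The low ceiling at 29 ºC also decided which genes entered the set. Applied to the WT libraries alone, the thresholds were passed by 148 genes, of which 60 were not members. Of these 60, 51 failed through an *ntl3-1* library above 0.5 FPKM at 29 ºC and 13 through an *ntl3-1* library below 5 FPKM at 45 ºC. Applied to the *ntl3-1* libraries alone, the thresholds were passed by 109 genes, of which 21 were not members, 10 through a WT library at 29 ºC and 15 through a WT library at 45 ºC. The 60 genes had a median of 0.620 FPKM in *ntl3-1* and 0.207 FPKM in WT at 29 ºC, a difference that their selection on the WT libraries favours. At 45 ºC their medians were 21.7 FPKM in *ntl3-1* and 17.7 FPKM in WT. The 21 genes, whose selection favours the reverse, had medians of 0.0448 FPKM in *ntl3-1* and 0.246 FPKM in WT at 29 ºC. Their medians at 45 ºC were 8.71 FPKM in *ntl3-1* and 6.75 FPKM in WT.

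The heat response itself was compared between the genotypes through the interaction of genotype and temperature. No member passed an adjusted p of 0.05 for the interaction (limma), where 0.0915% of all genes tested had a larger and 0.148% a smaller response in *ntl3-1*. Without the adjustment, 2 members (2.27%, against 3.19% of all genes tested) had a larger and 14 (15.9% against 4.43%) a smaller response in *ntl3-1* at p of at most 0.05. These responses rest in part on WT replicate 3 at 45 ºC, which was high for most members. They also rest on values of at most 0.5 FPKM at 29 ºC, where the constant of 0.1 FPKM weighs heavily. The part of either was not tested. With 1 library left out in turn, the interaction calls over all genes numbered 9 to 22 for larger and 12 to 39 for smaller responses, in place of 29 and 47, with the lowest counts without WT replicate 1 and without *ntl3-1* replicate 3 at 29 ºC. The lowest adjusted p was that of LOC_Os06g28790 (interaction −2.08 on the log2 scale, SE 0.46, adjusted p = 0.149, limma), whose values are given above. It was higher in *ntl3-1* at 29 ºC, with 0.119, 0.122 and 0.333 FPKM against 0, 0.0541 and 0.0604 FPKM in WT, and lower in *ntl3-1* at 45 ºC. The interaction of LOC_Os01g53650 equalled its difference at 45 ºC, because all its values at 29 ºC were 0 (adjusted p = 0.216, limma).

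The members lay on all 12 chromosomes, as read from the locus names, with 17 on chromosome 1 (19.3% of the members against 11.7% of all loci), 10 on chromosome 12 (11.4% against 7.17%) and 9 on chromosome 3 (10.2% against 9.95%). Loci are numbered in their order along a chromosome, which gives neighbours but no distances. By this order, 13 of the 87 members with such a name stood directly beside another member, in 1 run of 3 genes and 5 pairs. This was 14.9% of these members, while 0.364% of all genes tested stood beside a member. Of the 11988 such loci with at least 5 FPKM in every library at 45 ºC, 0.509% did. Whether these shares differ was not tested. The run was LOC_Os01g50280, LOC_Os01g50290 and LOC_Os01g50300. LOC_Os01g50290 had 19.3, 16.1 and 17.2 FPKM in *ntl3-1* and 23.2, 15.2 and 38.4 FPKM in WT at 45 ºC, and the flanking LOC_Os01g50280 and LOC_Os01g50300 stayed between 5.86 and 14.3 FPKM.

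The abundant LOC_Os02g34270 stood beside LOC_Os02g34260, which had 45.7, 34.0 and 68.2 FPKM in *ntl3-1* and 44.7, 23.4 and 43.5 FPKM in WT at 45 ºC. The next locus, LOC_Os02g34250, had 11.9, 6.16 and 10.2 FPKM in *ntl3-1* and 8.05, 4.16 and 8.04 FPKM in WT at 45 ºC and 0 in all libraries at 29 ºC, and missed the set through WT replicate 2. These 3 neighbours were all lowest in WT replicate 2. In the pair LOC_Os12g44200 and LOC_Os12g44210, the ATPase LOC_Os12g44210 was higher in *ntl3-1*, and so was the locus on the other side of LOC_Os12g44200. That locus, LOC_Os12g44190, had 86.2, 91.6 and 85.4 FPKM in *ntl3-1* and 30.7, 31.7 and 47.8 FPKM in WT at 45 ºC (log2FC 1.29, SE 0.16, adjusted p = 0.00189, limma). LOC_Os12g44200 between them had 8.69, 8.60 and 7.16 FPKM in *ntl3-1* and 5.21, 5.85 and 12.9 FPKM in WT at 45 ºC. The remaining pairs were LOC_Os08g43200 with LOC_Os08g43210, LOC_Os10g01750 with LOC_Os10g01760, and LOC_Os12g05520 with LOC_Os12g05529.

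**Figure D4:**
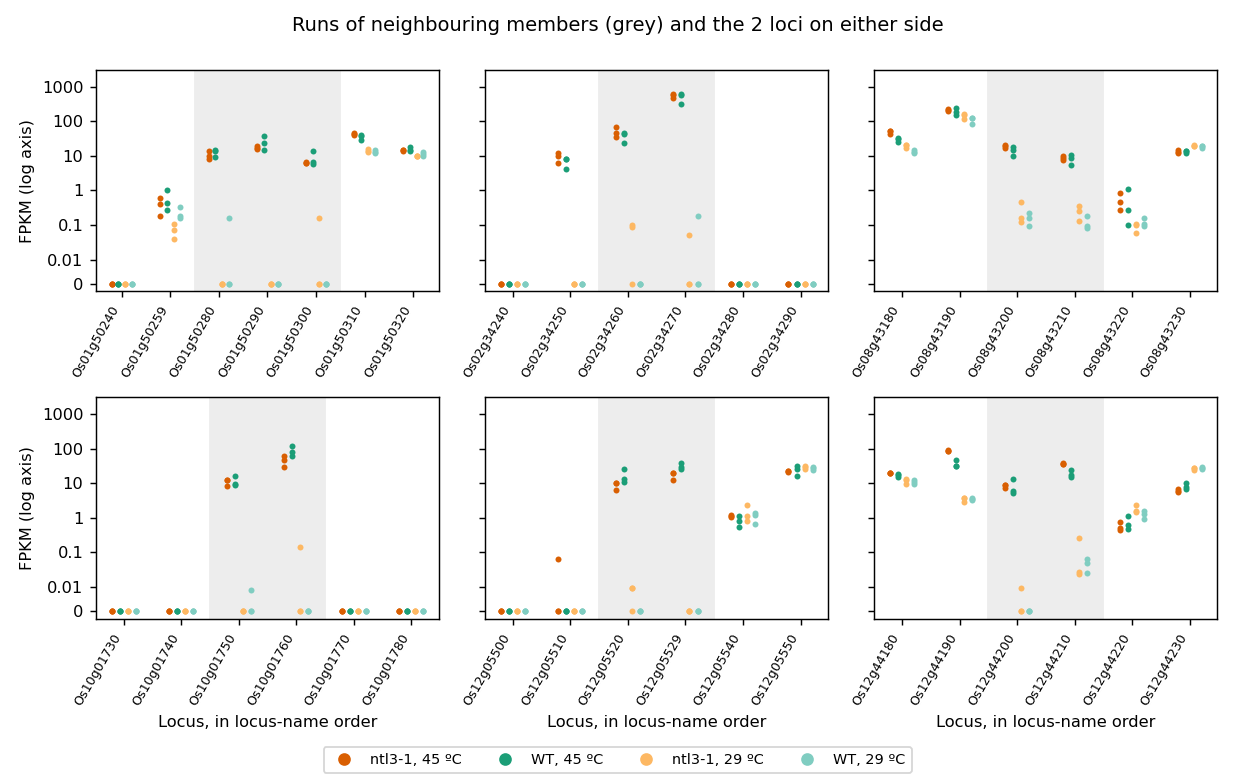
FPKM (log axis, with 0 drawn at the bottom) in each library for the 6 runs of neighbouring members (grey background) and the 2 loci on either side, in the order of the locus names. Orange and green points are *ntl3-1* and WT at 45 ºC, light points are the same genotypes at 29 ºC. Several flanking loci, such as LOC_Os12g44190 at 85.4 to 91.6 FPKM in *ntl3-1* and 30.7 to 47.8 FPKM in WT at 45 ºC, also had more transcript at 45 ºC than at 29 ºC, while others stayed at 0.

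The loci beside the members were also described. A neighbour with a log2 change of at least 3 between 45 ºC and 29 ºC was found for 26 of 87 members (29.9%), against 4.27% of all genes tested. Among the 11988 loci with at least 5 FPKM in every library at 45 ºC, the share was 5.38%. For 11 of the 26 members the only such neighbour was another member, which the thresholds fixed, and 15 members (17.2%) had such a neighbour outside the set. These shares are a description and were not tested. These 15 members had 17 such neighbours, with 0.874 to 2429 FPKM in their mean at 45 ºC. The SCP-like protein gene LOC_Os05g51680 stood beside LOC_Os05g51670, a member of the NAD-dependent epimerase/dehydratase family that had a mean of 2429 FPKM at 45 ºC and 33.4 FPKM at 29 ºC. LOC_Os01g47290 stood beside LOC_Os01g47300, with a mean of 659.6 FPKM at 45 ºC and 0.501 FPKM at 29 ºC. LOC_Os01g28970 stood beside LOC_Os01g28980, a proton-dependent oligopeptide transporter gene with 20.8 FPKM at 45 ºC and 1.20 FPKM at 29 ºC. The library kit named in the labels does not mark strand, so reads of overlapping or antisense neighbours cannot be told apart, and whether reads of a neighbour were counted on a member was not tested.

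The other genes of the HSF family showed how the single HSF of the set compared with its relatives. A list of 25 rice HSF loci was compiled by hand, and 5 of them are described as such in the product list of the study. Among the 24 HSF loci outside the set, 16 were up-regulated and 2 down-regulated at 45 ºC in *ntl3-1*, where 12.9% and 11.3% of all genes tested were called in these directions, and 17 were up-regulated and 1 down-regulated in WT, where 13.2% and 11.8% were called. Their median log2FC was 1.89 in *ntl3-1* and 1.76 in WT, against −0.04 over all genes tested in either genotype.

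LOC_Os03g53340 came closest to LOC_Os06g36930. It had 768, 637 and 855 FPKM in *ntl3-1* and 576, 429 and 746 FPKM in WT at 45 ºC, against 0.740, 0.164 and 0.451 FPKM in *ntl3-1* and 0.273, 0.172 and 0.0926 FPKM in WT at 29 ºC, and missed the set through *ntl3-1* replicate 1 at 29 ºC alone. LOC_Os03g06630 reached a like level at 45 ºC, with 622, 556 and 546 FPKM in *ntl3-1* and 455, 322 and 524 FPKM in WT, but was already expressed at 29 ºC, with 5.61, 6.95 and 7.89 FPKM in *ntl3-1* and 5.12, 6.67 and 5.64 FPKM in WT. LOC_Os03g63750 did not pass the test, with a log2FC of −0.11 in *ntl3-1* and 0.07 in WT. Between the genotypes at 45 ºC, 2 of the 24 HSF loci outside the set were up-regulated in *ntl3-1* (limma), where 0.877% of all genes tested were called higher. LOC_Os01g53220 had 21.9, 18.0 and 30.7 FPKM in *ntl3-1* and 8.73, 11.43 and 11.9985 FPKM in WT (log2FC 1.11, adjusted p = 0.0452, limma), and LOC_Os01g43590 had 2.14, 2.60 and 2.23 FPKM in *ntl3-1* and 0.622, 1.11 and 0.740 FPKM in WT (log2FC 1.42, adjusted p = 0.0405, limma).

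**Figure D5:**
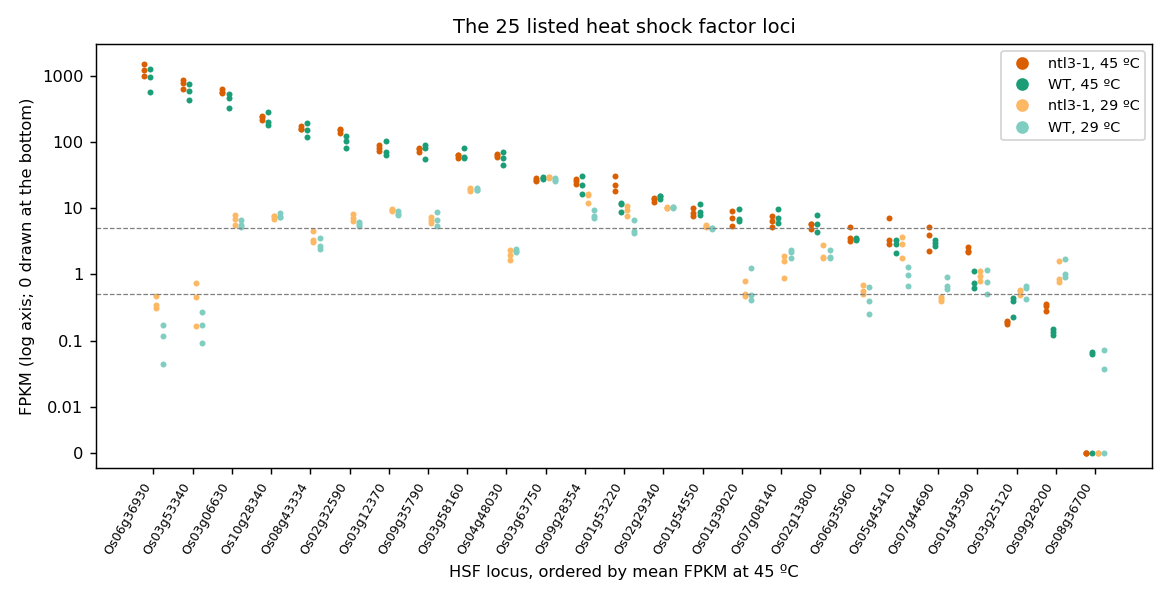
FPKM (log axis, with 0 drawn at the bottom) of the 25 listed HSF loci in each library, ordered by their mean at 45 ºC, with *ntl3-1* and WT at 45 ºC in orange and green and at 29 ºC in the light colors. The dashed lines mark 5 and 0.5 FPKM. LOC_Os06g36930, at the left, is the only one with all 6 values at 29 ºC at or below 0.5 FPKM and all 6 values at 45 ºC at or above 5 FPKM.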

How the data were processed

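RNA-Seq was made from whole seedlings in 12 libraries, with 3 in each of the 4 groups. According to the methods of the study, the authors filtered the reads with SeqPrep and Sickle, aligned them with TopHat to the MSU rice genome and computed FPKM with RSEM, and the FPKM as deposited by the authors were used here. The submitters' processing notes name Bowtie 0.12.2 and a mouse genome build instead, which goes against the rice locus names of the table. The header of the deposited values has the form of output from Cuffnorm, so the program that computed the FPKM is uncertain. Read counts were not used here, so the test for counts was replaced by limma.

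The members and the gene lists were chosen with earlier results of these data known. Genes above 0 in at least 3 libraries were tested (31681 genes). Values were transformed to log2(FPKM + 0.1), and limma 3.58.1 (R 4.3.3) estimated the 4 group means from the 12 libraries together, with empirical Bayes variances following mean expression. All p-values come from two-sided tests, with Benjamini-Hochberg adjustment across the 31681 genes. The constant shrinks the fold change of low genes, and at 0 FPKM the fold change rests on the constant. Replicates of a group had a correlation r of 0.967 to 0.980 across genes, and the procedure was tested on simulated data.

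The text names the 10 most abundant members, members called between the genotypes, up to 3 members per product group, the genes nearest to the thresholds and OsNTL3. The other members and neighbours named, and the HSF genes singled out, were chosen after their values were seen. Product names were read from the product column of a supplementary list of the study. The gene table used for reference matched 0 of the loci, so neither coordinates nor sequences are given. The alternatives tried were constants of 1 and 0.01 FPKM, other filters and scalings, a replicate block, variances without a trend, the libraries at 45 ºC alone, each library left out in turn, and other thresholds of the rule.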

Additional observations from a re-analysis of the deposited data

How the results depend on the processing

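With other thresholds, 43 genes passed at no more than 0.2 FPKM at 29 ºC, 133 at no more than 1 FPKM, 150 at 2 FPKM or more at 45 ºC and 55 at 10 FPKM or more, in place of 88. Between the genotypes at 45 ºC, the members called higher in *ntl3-1* numbered 0 at constants of 1 and 0.01 FPKM, under quantile normalization and with the libraries at 45 ºC alone, in place of 1, and 0 to 2 when each library was left out. Members called lower numbered 2 at a constant of 1 FPKM, in place of 0, and 0 to 1 with a library left out. At 29 ºC, 1 member was called higher with a filter at 1 FPKM in 3 libraries and under quantile normalization, in place of 0, and 0 to 2 with a library left out. No member had an interaction call in any alternative. The HSF loci outside the set called down-regulated numbered 0 in *ntl3-1* and 0 in WT at a constant of 1 FPKM, and 1 in *ntl3-1* with the filter at 1 FPKM, in place of 2. The causes were not tested.

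With the replicate number as a block, 1 member was called lower at 45 ºC and 1 higher at 29 ºC, in place of 0 each. The numbers do not pair the libraries: deviations from the group means correlated with r of −0.08 to 0.07 between libraries of the same number (18 pairs) and −0.10 to 0.13 between libraries of different numbers (36 pairs).

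Depth limits the values at 29 ºC, where 0 FPKM does not show that a gene was silent, and 3 libraries a group limit the differences that could be called.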

Other observations

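Among the 21 genes that passed the thresholds in the *ntl3-1* libraries alone, 2 had a mean below 1 FPKM in WT at 45 ºC. They were chosen after their values were seen and have no described product here. LOC_Os04g28360 had 7.96, 28.98 and 8.41 FPKM in *ntl3-1* at 45 ºC and was listed at 0 in the other 9 libraries. LOC_Os01g05310 had 5.75, 6.63 and 10.1 FPKM in *ntl3-1* and 1.10, 0.475 and 0.849 FPKM in WT at 45 ºC, and 0.180 to 0.453 FPKM in *ntl3-1* and 0.182 to 0.368 FPKM in WT at 29 ºC. Among the 60 genes that passed in the WT libraries alone, 0 had a mean below 1 FPKM in *ntl3-1* at 45 ºC. LOC_Os02g38000, also chosen after its values were seen, was down-regulated there (log2FC −2.16, adjusted p = 0.000999, limma). It had 1.04, 1.36 and 2.09 FPKM in *ntl3-1* and 5.80, 7.91 and 6.78 FPKM in WT at 45 ºC. Its highest value at 29 ºC was 0.00701 FPKM, and its interaction was −2.10 (adjusted p = 0.0492, limma). The most abundant of these 60, LOC_Os11g31060, had 1652, 1541 and 1381 FPKM in *ntl3-1* and 1303, 1098 and 1321 FPKM in WT at 45 ºC, and 1.11, 0.456 and 0.757 FPKM in *ntl3-1* and 0.304, 0.246 and 0.295 FPKM in WT at 29 ºC.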
